A study of Mus musculus with 16 samples.

Results

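The 9 genes described here are ligands of the bone morphogenetic protein (BMP) family, 1 BMP antagonist and the Id genes, which are known targets of the pathway: Bmp4, Bmp6, Bmp7, Gdf10, Nog, Id1, Id2, Id3 and Id4. They were taken by name from the 39171 features of the table, with earlier results of these data known. All 9 are protein-coding in the GENCODE annotation of GRCm38. Of the ligand genes it places Bmp4 at chr14:46383520-46390669 (minus strand), Bmp6 at chr13:38345107-38500302 (plus strand), Bmp7 at chr2:172868012-172940321 (minus strand) and Gdf10 at chr14:33923587-33937983 (plus strand). It places Nog at chr11:89300638-89302332 (minus strand), Id1 at chr2:152736251-152737410 (plus strand), Id2 at chr12:25093799-25097140 (minus strand), Id3 at chr4:136143497-136145755 (plus strand) and Id4 at chr13:48261228-48266026 (plus strand). RNA was sequenced from astrocytes sorted from 4 C57BL/6 mice at postnatal day 15. Every mouse carried 1 copy of an Il33 reporter that makes mCherry, and an Aldh1l1 reporter that makes GFP (genotype IL-33-mCherry (het)/Aldh1l1-GFP+, per the labels). The groups are reporter-positive spinal cord, reporter-negative spinal cord, reporter-positive thalamus and reporter-negative thalamus astrocytes, with 1 library per mouse in each, so 16 libraries in all. "Positive" and "negative" below refer to the Il33 reporter. Aldh1l1 is a gene used to mark astrocytes, and whether and how its GFP was gated in the sort is not stated there.

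BMPs are secreted dimers that bind paired type I and type II serine/threonine kinase receptors. The receptors phosphorylate SMAD proteins, which then enter the nucleus with Smad4, and Id1 to Id4 are among the genes they switch on. Id proteins lack a DNA-binding region and hold E proteins and other basic helix-loop-helix (bHLH) factors off DNA. Noggin, the product of Nog, binds BMPs outside the cell and blocks them. In the developing brain and spinal cord, BMP signalling favours astrocyte over oligodendrocyte fate, and Id2 and Id4 are known as inhibitors of oligodendrocyte maturation.

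The values are FPKM, fragment numbers scaled for transcript length and for the size of the library, as the authors deposited them, so levels may be compared between genes per length. Libraries had 13260 to 14731 features at 1 FPKM or more. The FPKM of a library summed to between 984986 and 2344483. In each region every negative library had a larger sum than every positive one, and the cause was not tested. Of 10 astrocyte markers, 3 were higher and 2 lower in positive spinal cord, and 2 were higher and 3 lower in positive thalamus, by the test described below. Their summed level ran from 6899 to 7398 FPKM in positive spinal cord, against 5147 to 6643 FPKM in negative spinal cord, and from 3700 to 4452 FPKM in positive thalamus, against 3808 to 4678 FPKM in negative thalamus libraries. Il33 transcript itself lay at 27.9 ± 3.49 FPKM in positive spinal cord, against 24.6 ± 7.93 FPKM in negative spinal cord, and at 27.4 ± 3.41 FPKM in positive thalamus, against 18.6 ± 6.01 FPKM in negative thalamus, so its ranges overlapped between the gates in both regions. Markers of other cells differed between the gates. The summed level of 12 oligodendrocyte markers ran from 160 to 172 FPKM in positive spinal cord, against 3260 to 3436 FPKM in negative spinal cord libraries, and from 78.7 to 115 FPKM in positive thalamus, against 414 to 955 FPKM in negative thalamus libraries. For 8 markers of oligodendrocyte precursors and newly formed oligodendrocytes the sums were 7.52 to 9.76 FPKM in positive spinal cord, against 610 to 786 FPKM in negative spinal cord, and 5.61 to 6.62 FPKM in positive thalamus, against 117 to 180 FPKM in negative thalamus. For 10 ependymal markers they were 2.98 to 5.87 FPKM in positive spinal cord, against 78.8 to 98.3 FPKM in negative spinal cord, and 3.48 to 5.13 FPKM in positive thalamus, against 254 to 470 FPKM in negative thalamus. No marker of these 3 lists was at 0 in all libraries of a group. Summed levels of 10 endothelial markers were 3.70 to 5.16 FPKM in positive spinal cord, against 29.01 to 48.8 FPKM in negative spinal cord, and 4.08 to 5.22 FPKM in positive thalamus, against 10.8 to 17.6 FPKM in negative thalamus. Summed neuronal markers (8 genes) were 14.9 to 25.3 FPKM in positive spinal cord, against 28.6 to 53.0 FPKM in negative spinal cord, and 8.57 to 13.3 FPKM in positive thalamus, against 34.7 to 84.0 FPKM in negative thalamus. Summed microglial markers (8 genes) overlapped between the gates in both regions, from 14.04 to 30.9 FPKM over all libraries, and C1qa was at 0 in all libraries of negative spinal cord. Since each library is a bulk sample, fewer cells of a type and less RNA per cell cannot be told apart.

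In the spinal cord, 6 of the 9 genes differed between positive and negative libraries, 2 higher and 4 lower. Of all 16340 features tested there, 19.6% passed, 9.04% as higher and 10.5% as lower. In the thalamus 3 of 9 differed, 1 higher and 2 lower, where 25.2% of all features passed, 11.6% as higher and 13.6% as lower. Bmp7 was higher and Bmp4 and Id4 were lower in positive cells of both regions. Bmp6 and Gdf10 were lower and Nog was higher in positive cells of the spinal cord, while Id1, Id2 and Id3 did not pass in either region. The fold changes of the 2 regions differed for 3 of 9, each lower in the spinal cord minus thalamus contrast (Bmp4, Bmp6 and Gdf10), where 2.56% of all features passed, 1.13% as higher and 1.43% as lower. The groups did not overlap for 6 genes in the spinal cord and for 4 in the thalamus, beside 27.9% and 25.8% of all features. The median log2 fold change of the 9 was 0.15 in the spinal cord, where that of all features was 0.09, and 0.10 in the thalamus, where that of all features was 0.06. Tests were run with limma on log2(FPKM + 1), a scale that understates changes of weakly expressed genes, and a gene passed with an adjusted p (Benjamini-Hochberg, over all features tested) under 0.05.

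**Figure D1:**
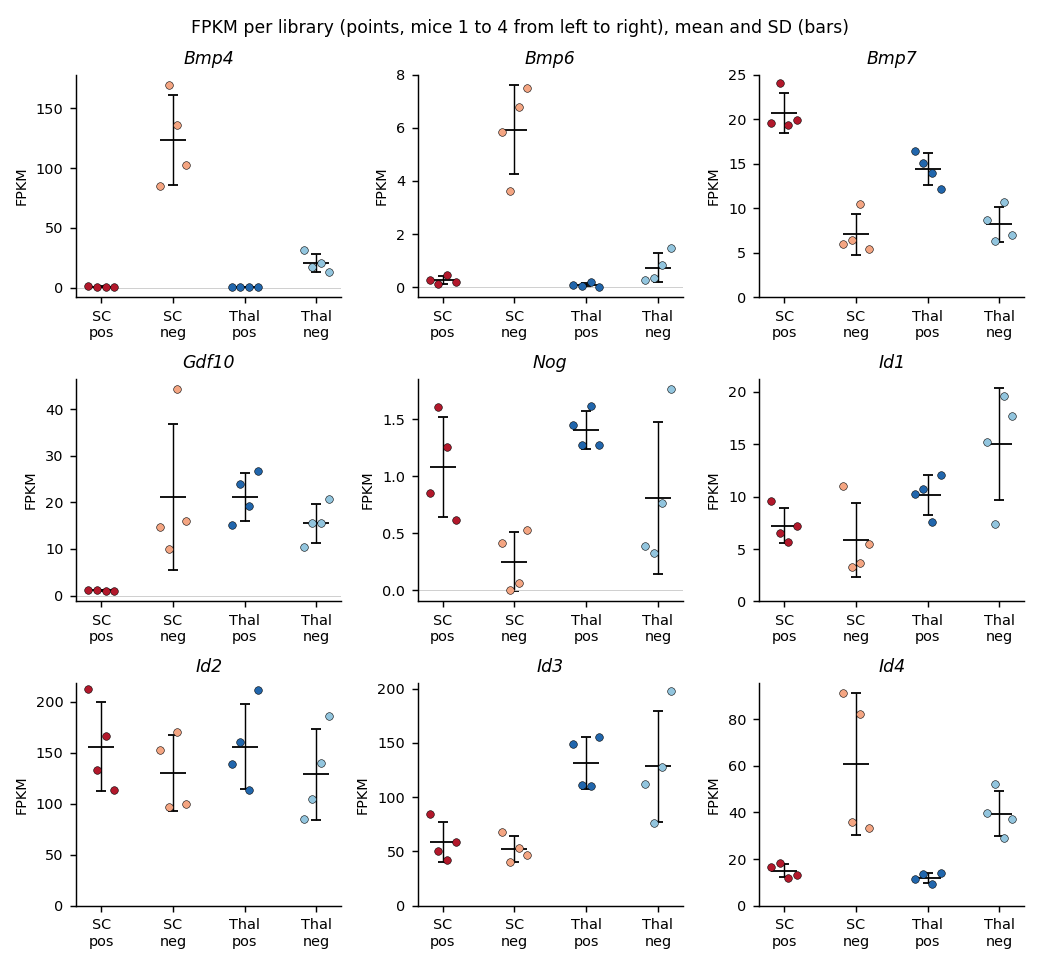
FPKM (vertical axes, linear) of the 9 genes in each library, by group, with SC for spinal cord, Thal for thalamus, pos for reporter-positive and neg for reporter-negative; points are mice 1 to 4 from left to right, and bars are the mean and SD of 4 mice. Bmp4 lies at 1.11 FPKM or below in all 8 positive libraries and at 13.3 FPKM or above in all 8 negative ones, and Gdf10 lies at 1.26 FPKM or below only in positive spinal cord.

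Among the ligands, Bmp4 differed most between the gates. Bmp4 is a BMP that postnatal oligodendrocyte-lineage cells are known to make. Its level was 1.11, 0.83, 0.37 and 0.40 FPKM in positive spinal cord libraries of mice 1 to 4. In negative ones it was 84.7, 170, 136 and 102 FPKM. In the thalamus it was 0.43, 0.42, 0.66 and 0.59 FPKM in positive libraries, against 31.4, 16.8, 20.7 and 13.3 FPKM in negative ones. Every positive library lay far below every negative one, and the negative spinal cord libraries lay above all negative thalamus libraries. The log2 fold change was -6.18 (SE 0.26, adjusted p 1.0e-09) in the spinal cord and -3.76 (SE 0.26, adjusted p 2.3e-07) in the thalamus, and it was lower in 4 of 4 mice in both. Within mice the negative level was 76.4 to 372 times the positive one in the spinal cord and 22.4 to 73.1 times in the thalamus.

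The difference between the regions was itself past the threshold for Bmp4, at -2.43 on the log2 scale (SE 0.37, adjusted p 0.0028). It missed the threshold without mouse 3 (adjusted p 0.067) and without mouse 4 (adjusted p 0.051). The 2 negative groups differed by 2.54 (SE 0.26, adjusted p 1.9e-05), spinal cord over thalamus, in 4 of 4 mice. Between the positive groups Bmp4 was at 0.68 ± 0.36 FPKM in the spinal cord and 0.52 ± 0.12 FPKM in the thalamus (SD, n = 4), ranges that overlapped. At these levels, and with sequencing depth unknown, a regional difference in positive cells was not detectable. The oligodendrocyte-lineage and endothelial marker sums given above moved with Bmp4 across the 4 groups, and their part in its levels was not tested. Gm15222, an antisense gene that overlaps Bmp4 on the opposite strand, reached up to 21.5 FPKM in negative spinal cord and was at most 0.49 FPKM in positive spinal cord. Whether counting used strand is not stated in the labels or notes, so reads of Bmp4 and Gm15222 may not be separated.

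Bmp6, a second BMP ligand, was a weak transcript outside negative spinal cord. It lay at 0.26, 0.13, 0.48 and 0.22 FPKM in positive spinal cord libraries, against 5.86, 3.61, 6.78 and 7.49 FPKM in negative ones. Thalamus libraries had 0.08, 0.04, 0.19 and 0.03 FPKM in the positive gate, against 0.29, 0.36, 0.83 and 1.49 FPKM in the negative gate. The gates did not overlap in either region, but only the negative spinal cord libraries and 1 negative thalamus library reached 1 FPKM. The fold change was -2.42 (SE 0.23, adjusted p 3.7e-06) in the spinal cord and -0.64 (SE 0.23, adjusted p 0.058) in the thalamus. The thalamus value was past the threshold with a pseudocount of 0.1 in place of 1 (-2.05, adjusted p 0.0094), with the mouse as a block (adjusted p 0.040), and without the negative thalamus library of mouse 1 (adjusted p 0.027) or of mouse 2 (adjusted p 0.042). The difference between the regions was -1.78 (SE 0.33, adjusted p 0.0088). This call was lost with a pseudocount of 0.1 (-2.01, adjusted p 0.20), without mouse 1 (adjusted p 0.070) and without mouse 3 (adjusted p 0.094). Between the negative groups Bmp6 was higher in the spinal cord by 2.01 (SE 0.23, adjusted p 5.1e-05). Bmp4 and Bmp6 entered the tests mainly through the negative groups, since 8 of the 9 libraries with at least 1 FPKM of Bmp4 and all 5 of Bmp6 were negative ones. The oligodendrocyte-lineage and endothelial marker sums moved with Bmp6, and their part in its levels was not tested. Txndc5, which overlaps Bmp6 on the opposite strand, lay between 4.05 and 15.8 FPKM in all libraries.

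Bmp7, a ligand also known from astrocytes and meninges, ran the other way. Its level was 19.6, 24.1, 19.3 and 19.9 FPKM in positive spinal cord, against 6.00, 6.43, 10.4 and 5.41 FPKM in negative spinal cord. In the thalamus it was 16.4, 15.1, 13.95 and 12.2 FPKM in positive libraries, against 8.68, 6.34, 10.8 and 7.04 FPKM in negative ones. All 8 positive libraries were above all 8 negative ones. The fold change was 1.46 in the spinal cord (SE 0.20, adjusted p 1.2e-04) and 0.76 in the thalamus (SE 0.20, adjusted p 0.013), in 4 of 4 mice each. The thalamus call was lost without mouse 1 (adjusted p 0.057), mouse 2 (adjusted p 0.096) or mouse 4 (adjusted p 0.062). The difference between the regions was 0.70 (SE 0.28, adjusted p 0.25) and did not pass. In the authors' deposited table, which sets positive against negative libraries over both regions, Bmp7 has a log2 fold change of 1.15 (SE 0.188, adjusted p 2.19e-08).

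Bmp7 was the one ligand of the 4 that was higher in positive cells of both regions. Summed fibroblast and meningeal markers (8 genes) lay at 48.7 to 70.8 FPKM in positive spinal cord, against 39.9 to 49.3 FPKM in negative spinal cord, and at 19.4 to 25.2 FPKM in positive thalamus, against 17.9 to 27.8 FPKM in negative thalamus; their part in the level of Bmp7 was not tested. The astrocyte marker sums were higher in each positive than in each negative spinal cord library and overlapped in the thalamus, and their part was not tested. Between the positive groups, Bmp7 was higher in every spinal cord library than in any thalamus library. That difference was 0.50 (SE 0.20, adjusted p 0.19) in the fit over all groups and passed when only the 2 groups compared were fitted (adjusted p 0.017).

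Gdf10, a ligand of the same superfamily that is grouped with Bmp3, had a pattern of its own. It was at 1.15, 1.26, 1.05 and 0.89 FPKM in positive spinal cord, against 14.6, 9.89, 44.3 and 15.9 FPKM in negative spinal cord. Thalamus libraries had 15.05, 23.8, 19.2 and 26.7 FPKM in the positive gate, against 10.4, 15.5, 15.6 and 20.6 FPKM in the negative gate. Positive spinal cord stood alone at the low end, and the ranges of the other 3 groups overlapped. The fold change between the gates was -3.19 in the spinal cord (SE 0.35, adjusted p 1.5e-05) and 0.43 in the thalamus (SE 0.35, adjusted p 0.39). Their difference was -3.62 (SE 0.49, adjusted p 0.0011). Among positive cells Gdf10 was lower in the spinal cord than in the thalamus (log2 fold change -3.38, SE 0.35, adjusted p 2.5e-05), in 4 of 4 mice. Within mice the thalamus level was 13.1 to 29.8 times that of the spinal cord. These 3 calls were kept in each of the alternatives run. Among negative cells the regions did not differ past the threshold (0.24, SE 0.35, adjusted p 0.75), and the sign turned without the negative spinal cord library of mouse 3, the highest of all (-0.18). Within the spinal cord the oligodendrocyte-lineage, ependymal, endothelial and neuronal marker sums were higher in the negative gate, as Gdf10 was. In the thalamus these sums were also higher in the negative gate, while the Gdf10 ranges of the gates overlapped. The part of these cells in the level of Gdf10 was not tested.

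**Figure D2:**
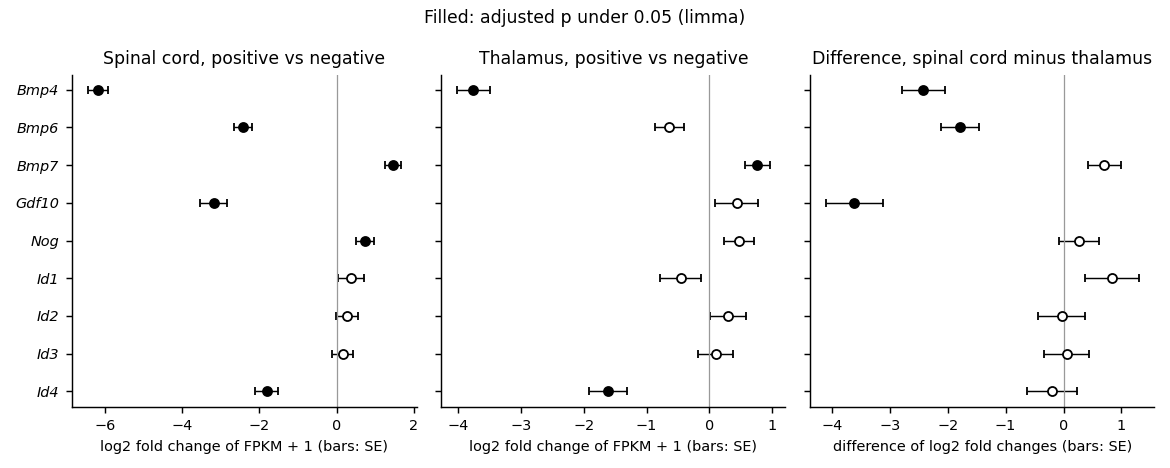
Log2 fold changes of FPKM + 1 (horizontal axes) of the 9 genes in positive against negative cells of the spinal cord (left) and thalamus (middle), and the difference of these 2 values (right), with bars for the SE and filled points for an adjusted p under 0.05. Bmp4, Bmp6 and Gdf10 are the 3 genes filled in the right panel, at -2.43, -1.78 and -3.62.

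The promoters of Bmp4, Gdf10 and Id4 are shown as the regulatory sequence of the 3 genes with the largest changes between the gates for which the RefSeq promoter table (GRCm38.p6) holds a window and the window lies outside the gene's own GENCODE annotation. Each is the 250 bases before the start, 5′ to 3′ on the strand of the gene. The window of Bmp4 is chr14:46390670-46390919 on the minus strand, that of Gdf10 is chr14:33923337-33923586 on the plus strand and that of Id4 is chr13:48260866-48261115 on the plus strand. Capitals mark GGCGCC, a GC-rich motif that BMP-activated SMADs are known to bind.
Bmp4: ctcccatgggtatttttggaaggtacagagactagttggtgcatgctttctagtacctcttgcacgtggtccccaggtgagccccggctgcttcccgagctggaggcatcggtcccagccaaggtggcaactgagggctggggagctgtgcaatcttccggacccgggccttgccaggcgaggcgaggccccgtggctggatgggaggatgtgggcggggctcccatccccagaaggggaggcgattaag
Gdf10: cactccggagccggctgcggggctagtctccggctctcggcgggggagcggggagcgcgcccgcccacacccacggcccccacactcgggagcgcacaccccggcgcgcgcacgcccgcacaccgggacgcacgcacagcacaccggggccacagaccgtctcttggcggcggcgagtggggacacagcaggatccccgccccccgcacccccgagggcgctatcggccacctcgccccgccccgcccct
Id4: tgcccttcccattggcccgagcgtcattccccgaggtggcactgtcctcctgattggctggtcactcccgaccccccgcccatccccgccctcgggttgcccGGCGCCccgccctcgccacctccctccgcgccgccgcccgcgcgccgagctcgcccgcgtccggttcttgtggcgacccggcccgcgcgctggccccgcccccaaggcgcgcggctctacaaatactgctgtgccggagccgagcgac
The motif GGCGCC lies 148 bases before the start of Id4. It was absent from the Bmp4 window, and the copy of Gdf10 lies in the 50 bases after the start and is not shown. Of the 6 members in the table (Bmp4, Bmp6, Gdf10, Id2, Id3 and Id4), 3 held GGCGCC in the 300 bases from 250 before to 50 after the start, beside 11.9% of all 32851 promoters of the table. The palindrome GTCTAGAC, another SMAD motif, was in 0 of 6 and in 0.213% of all promoters. Both motifs read the same on either strand and do not overlap each other. A match describes these letters only. GC content was 63.2% in the Bmp4 window, 78.8% in that of Gdf10 and 75.6% in that of Id4.

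Noggin transcript was scarce in all groups. Nog was at 0.86, 1.61, 1.25 and 0.62 FPKM in positive spinal cord, against 0.42, 0, 0.06 and 0.53 FPKM in negative spinal cord. In the thalamus it was at 1.45, 1.27, 1.62 and 1.28 FPKM in positive libraries, against 0.39, 0.33, 0.76 and 1.77 FPKM in negative ones. The gates did not overlap in the spinal cord and overlapped in the thalamus through mouse 4. The fold change was 0.74 in the spinal cord (SE 0.24, adjusted p 0.044) and 0.47 in the thalamus (SE 0.24, adjusted p 0.17). Nog entered the tests mainly through the positive groups, since 6 of its 7 libraries with at least 1 FPKM were positive ones and 0 were negative spinal cord. The spinal cord call was fragile. It missed the threshold with the mouse as a block (adjusted p 0.069), with no filter on low values (adjusted p 0.065), and without mouse 1 (adjusted p 0.081), mouse 2 (adjusted p 0.24) or mouse 3 (adjusted p 0.25). Leaving out single libraries gave the same outcome for positive libraries 1, 2 and 3 (adjusted p 0.068, 0.13 and 0.11) and for negative libraries 2 and 3 (adjusted p 0.11 and 0.10). In the thalamus Nog passed without the negative library of mouse 4 (0.70, adjusted p 0.030).

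Of the Id genes, Id4 alone differed between the gates, in both regions. Id4 is an Id protein known in neural stem cells and astrocytes. Its level was 16.8, 18.2, 11.9 and 13.3 FPKM in positive spinal cord, against 91.4, 36.1, 82.2 and 33.2 FPKM in negative spinal cord. Thalamus libraries had 11.6, 13.6, 9.24 and 13.8 FPKM in the positive gate, against 39.6, 52.1, 28.98 and 37.1 FPKM in the negative gate. All positive libraries were below all negative ones, and the negative spinal cord libraries fell into a higher pair (mice 1 and 3) and a lower pair (mice 2 and 4). The fold change was -1.82 in the spinal cord (SE 0.31, adjusted p 7.2e-04) and -1.61 in the thalamus (SE 0.31, adjusted p 0.0017), lower in 4 of 4 mice in each. Both calls held in each of the alternatives run. The regions did not differ past the threshold, at -0.20 (SE 0.43, adjusted p 0.89). In the authors' deposited table Id4 has a log2 fold change of -1.92 (SE 0.259, adjusted p 4.46e-12). A330033J07Rik, an antisense gene that overlaps Id4, lay between 0.77 and 3.69 FPKM in all libraries. The oligodendrocyte-lineage, ependymal, endothelial and neuronal marker sums were also higher in the negative gate of both regions. The part of these cells in the level of Id4 was not tested.

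Id1 was the least abundant Id transcript. It was at 9.55, 6.53, 5.68 and 7.17 FPKM in positive spinal cord, against 11.0, 3.25, 3.71 and 5.44 FPKM in negative spinal cord. In the thalamus it was at 10.3, 10.7, 7.55 and 12.0 FPKM in positive libraries, against 15.2, 7.41, 19.6 and 17.7 FPKM in negative ones. The gates overlapped in both regions, with fold changes of 0.37 (SE 0.33, adjusted p 0.47) in the spinal cord and -0.46 (SE 0.33, adjusted p 0.33) in the thalamus.

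Id2, which is known to restrain oligodendrocyte maturation, had the highest mean FPKM of the 9 in each group, although its range overlapped that of Id3 in both thalamus groups and that of Bmp4 in negative spinal cord. It was at 212, 133, 166 and 113 FPKM in positive spinal cord, against 153, 96.8, 170 and 99.5 FPKM in negative spinal cord. Thalamus libraries had 139, 161, 113 and 212 FPKM in the positive gate, against 84.7, 105, 140 and 186 FPKM in the negative gate. All 4 groups overlapped. The fold change was 0.27 in the spinal cord (SE 0.29, adjusted p 0.56) and 0.30 in the thalamus (SE 0.29, adjusted p 0.47). Id2 was the one gene of the 9 that passed in none of the 5 comparisons.

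Id3 differed between the regions and not past the threshold between the gates. It was at 84.4, 50.2, 41.9 and 58.5 FPKM in positive spinal cord, against 149, 111, 111 and 155 FPKM in positive thalamus. In negative cells it was at 68.0, 40.02, 52.8 and 46.9 FPKM in the spinal cord, against 112, 76.0, 127 and 197 FPKM in the thalamus. The spinal cord ranges lay below the thalamus ranges in both gates. Within the regions, positive over negative gave 0.15 (SE 0.28, adjusted p 0.75) in the spinal cord and 0.10 (SE 0.28, adjusted p 0.83) in the thalamus.

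Set by region, 2 of the 9 genes differed in positive cells, both lower in the spinal cord, beside 6.1% of all features in either direction (4.22% higher, 1.88% lower). They were Gdf10, given above, and Id3, at -1.18 (SE 0.28, adjusted p 0.019) and in 4 of 4 mice. The groups did not overlap for 3 genes, Bmp7 added, beside 29.7% of all features. Id3 missed the threshold without mouse 2 (adjusted p 0.065), mouse 3 (adjusted p 0.18) or mouse 4 (adjusted p 0.10), without the positive spinal cord library of mouse 2 (adjusted p 0.067) or mouse 3 (adjusted p 0.076), and when positive thalamus lost the library of mouse 1 (adjusted p 0.059) or that of mouse 4 (adjusted p 0.068). In negative cells 4 genes differed by region, beside 9.81% of all features (5.27% higher, 4.54% lower): Bmp4 and Bmp6 were higher and Id1 and Id3 lower in the spinal cord. The groups did not overlap for 3 of them, beside 9.06% of all features. Id3 was at -1.23 (SE 0.28, adjusted p 0.010), and the call was lost without mouse 3 (adjusted p 0.068), without mouse 4 (adjusted p 0.10) and when only the 2 groups were fitted (adjusted p 0.097). Id1 was at -1.27 (SE 0.33, adjusted p 0.024), lower in 4 of 4 mice, although the ranges overlapped. Its call was lost when only the 2 groups were fitted (adjusted p 0.22), without mouse 3 (adjusted p 0.18) or mouse 4 (adjusted p 0.15), without the negative spinal cord library of mouse 2 (adjusted p 0.068) or 3 (adjusted p 0.065), and without the negative thalamus library of mouse 3 (adjusted p 0.059) or 4 (adjusted p 0.057). With an exact two-sided permutation test of mean FPKM, Id1 gave p = 0.0571, where the smallest p that 4 against 4 libraries can give is 0.0286.

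The 4 Id transcripts added up to similar totals in both gates. The sum was 237 ± 58.8 FPKM in positive spinal cord, against 248 ± 78.6 FPKM in negative spinal cord, and 310 ± 62.8 FPKM in positive thalamus, against 312 ± 91.0 FPKM in negative thalamus (SD, n = 4). The makeup of that sum differed. Id4 made up 5.20% to 8.75% of it in positive spinal cord libraries and 17.9% to 28.3% in negative ones, and 3.52% to 4.61% in positive thalamus libraries and 8.46% to 21.7% in negative ones. Id3 took 18.5% to 30.4% and 17.1% to 25.3% in positive and negative spinal cord, and 37.4% to 48.2% and 31.6% to 45.0% in positive and negative thalamus. Id2 took 58.9% to 73.7% in positive and 47.3% to 55.1% in negative spinal cord, and 44.8% to 54.3% in positive and 33.7% to 44.3% in negative thalamus. These shares are a description and were not tested.

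**Figure D3:**
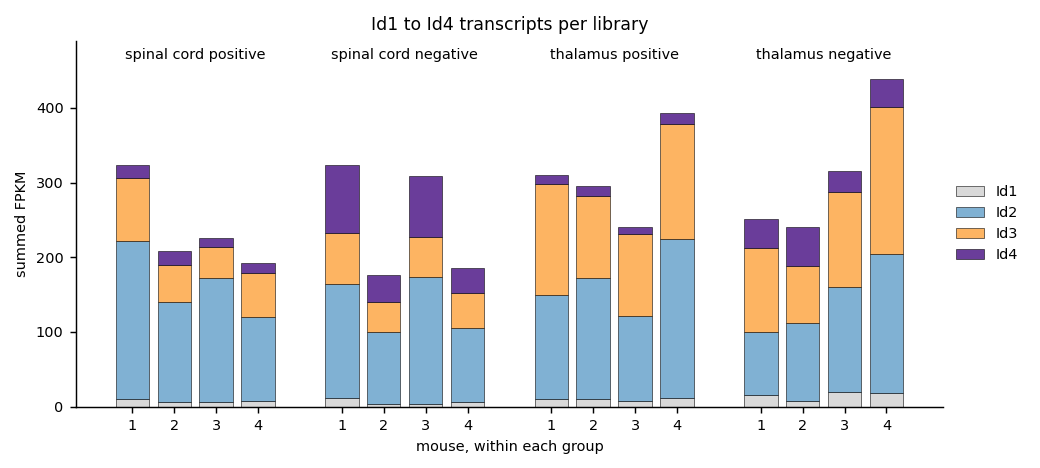
Summed FPKM of Id1, Id2, Id3 and Id4 (vertical axis, linear from 0) in each library, with mice 1 to 4 along the horizontal axis within each group. The Id4 segment is thinner in positive than in negative libraries of the same region, and the Id3 segment is taller in the thalamus, while the totals overlap between the gates.

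For the 8 genes that passed in at least 1 comparison, the genes with the most similar levels over the 16 libraries were found by the root mean square difference of log2(FPKM + 1) after centring each gene on its mean, among 11105 genes. Nearest to Bmp4 were Tubb4a (0.33), a tubulin of myelinating cells, Sox10 (0.35), a transcription factor of the oligodendrocyte lineage, and Bcas1 (0.39), a gene that marks newly formed oligodendrocytes. Over all candidates the median difference from Bmp4 was 2.67. Sox10 lay at 0.84 ± 0.44 FPKM in positive spinal cord, against 96.3 ± 15.6 FPKM in negative spinal cord, and at 0.82 ± 0.25 FPKM in positive thalamus, against 17.7 ± 4.34 FPKM in negative thalamus (SD, n = 4), close to Bmp4 in each group. With a pseudocount of 0.1, Sox10 ranked first and the other two fell outside the first 3. Sox10 and Bcas1 are also in the precursor marker list used above.

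**Figure D4:**
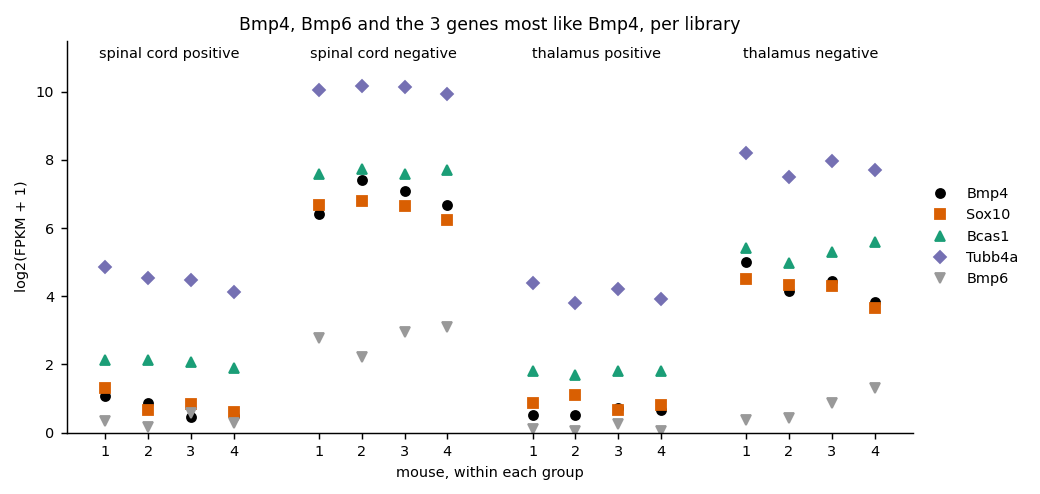
Log2(FPKM + 1) (vertical axis) of Bmp4, its 3 most similar genes and Bmp6 in each library, with mice 1 to 4 along the horizontal axis within each group. Bmp4 and Sox10 lie together in all 4 groups, high in negative spinal cord and intermediate in negative thalamus, while Bmp6 is low in both thalamus groups.

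Nearest to Bmp6 were Col23a1 (0.26), Fyn (0.33), a Src-family kinase, and Lrrc55 (0.33), none of which stayed among the first 3 with the smaller pseudocount. Bmp7 was nearest to Tril (0.24), Ptplad1 (0.27) and Lifr (0.27), the receptor of leukemia inhibitory factor. Lifr lay at 37.5 ± 5.76 FPKM in positive spinal cord, against 18.4 ± 3.6 FPKM in negative spinal cord, and at 32.6 ± 6.80 FPKM in positive thalamus, against 17.8 ± 2.89 FPKM in negative thalamus. Gdf10 was nearest to Plat (0.63), which encodes tissue plasminogen activator, Prox1 (0.64), a homeobox transcription factor, and Tes (0.70), beside a spread of Gdf10 itself over the libraries of 1.45 by the same measure. Prox1 lay at 0.62 ± 0.23 FPKM in positive spinal cord, against 11.1 ± 5.38 FPKM in negative spinal cord, and at 5.18 ± 0.89 FPKM in positive thalamus, against 9.88 ± 0.97 FPKM in negative thalamus. Nearest to Id4 were Nudt4 (0.31), Hsbp1 (0.33) and Ppdpf (0.34), and these 3 stayed first with the smaller pseudocount. Id3 was nearest to Sirpa (0.32), Dner (0.33) and Rasgrf1 (0.33), and Id1 to Prorsd1 (0.30), Sirpa (0.36) and Pacrgl (0.36). Nog was nearest to Tmem136 (0.19), Ap4b1 (0.24) and Timp3 (0.26), none of which stayed with the smaller pseudocount. These values are descriptions over 16 libraries that share their mice and sorts.

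The rest of the pathway was described from lists of ligands, extracellular antagonists, receptors, SMAD regulators, other target genes and E proteins or glial bHLH genes. The lists share 5 genes (Smad6, Smad7, Smad9, Bambi and Nbl1), each in the list of other targets and in 1 more, so that a shared gene that passed is counted in both. With each gene counted once, 49 were tested, 5 of them members. Of the 49, 5 were higher and 13 lower in positive cells of the spinal cord, 36.7% beside 19.6% of all features. In the thalamus 2 were higher and 14 lower, 32.7% beside 25.2%. The members Bmp4, Bmp6, Bmp7, Gdf10 and Nog are in these counts, and all 5 passed in the spinal cord. Bmp4 and Bmp7 also passed in the thalamus. Members and lists were chosen with earlier results of these data known, so these shares are a description and not a test.

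Of 20 ligands, 8 were expressed enough to be tested. Besides the members these were Bmp3, Gdf1, Gdf9 and Gdf11. In the spinal cord 1 of the 8 was higher and 3 were lower in positive cells, all 4 of them members, where 19.6% of all features passed. In the thalamus 1 was higher and 2 were lower, where 25.2% of all features passed. Bmp3, a BMP that antagonises other BMPs, was the one non-member, at 0.39 ± 0.28 FPKM in positive thalamus, against 2.58 ± 1.63 FPKM in negative thalamus (log2 fold change -1.29, SE 0.26, adjusted p 0.0027). The median log2 fold change of the 8 was -0.06 in the spinal cord and -0.54 in the thalamus, where the medians of all features were 0.09 and 0.06.

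Of 20 antagonists and modulators, 9 were tested. In the spinal cord 2 were higher and 0 lower in positive cells, Nog and Fstl1, and in the thalamus 1 was higher and 2 were lower. Beside the 19.6% of all features that passed in the spinal cord and the 25.2% in the thalamus, these counts are not a result about this list. The median of the 9 was -0.06 in the spinal cord and -0.49 in the thalamus. Fstl1, a secreted follistatin-like protein that binds BMPs, was far more abundant than Nog. It lay at 55.3 ± 1.85 FPKM in positive spinal cord, against 32.1 ± 5.10 FPKM in negative spinal cord (0.78, SE 0.16, adjusted p 0.0027), and at 65.1 ± 8.62 FPKM in positive thalamus, against 37.4 ± 7.31 FPKM in negative thalamus (0.79, SE 0.16, adjusted p 0.0022). Twsg1, twisted gastrulation, which binds BMPs together with chordin, was lower in positive thalamus, at 9.76 ± 1.38 FPKM, against 21.3 ± 3.78 FPKM in negative thalamus (-1.05, SE 0.19, adjusted p 9.7e-04). Chrdl1, a chordin-like antagonist that astrocytes secrete, was at 0.73 ± 0.32 FPKM in positive thalamus, against 2.53 ± 1.28 FPKM in negative thalamus (-0.97, SE 0.25, adjusted p 0.012). The Chrdl1 call was lost in 4 of 18 alternatives, among them those without mouse 1, 2 or 3 (adjusted p 0.056, 0.056 and 0.059).

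Receptors were present in both gates. Of 13 receptors and co-receptors, 10 were tested. In the spinal cord 1 was higher and 4 were lower in positive cells, and in the thalamus 0 were higher and 5 were lower, with medians of 0.003 and -0.41. Over all features 10.5% were lower in the spinal cord and 13.6% in the thalamus. The type I receptor Bmpr1a lay at 32.1 ± 3.02 FPKM in positive thalamus, against 65.2 ± 5.59 FPKM in negative thalamus (-0.998, SE 0.15, adjusted p 2.3e-04). It also passed as lower in positive spinal cord, at 42.6 ± 0.62 FPKM, against 60.7 ± 13.9 FPKM in negative spinal cord (-0.48, SE 0.15, adjusted p 0.033). The type II receptor Bmpr2 lay at 43.5 ± 5.01 FPKM in positive thalamus, against 72.2 ± 9.63 FPKM in negative thalamus (-0.72, SE 0.17, adjusted p 0.0069). Neo1, neogenin, a receptor of repulsive guidance molecules, was lower in positive cells of both regions, at 21.8 ± 1.84 FPKM against 46.9 ± 3.69 FPKM in negative spinal cord (-1.07, SE 0.12, adjusted p 1.5e-05) and at 29.8 ± 2.68 FPKM against 47.0 ± 2.62 FPKM in negative thalamus (-0.64, SE 0.12, adjusted p 0.0012). In the spinal cord the type I receptor Acvr1 was higher in positive cells, at 13.3 ± 0.70 FPKM, against 7.04 ± 1.81 FPKM in negative cells (0.86, SE 0.22, adjusted p 0.012), a call lost without mouse 2 (adjusted p 0.080). Eng, endoglin, a co-receptor of endothelial cells, lay at 0.27 ± 0.12 FPKM in positive spinal cord, against 5.58 ± 2.86 FPKM in negative spinal cord (-2.23, SE 0.37, adjusted p 6.0e-04). It also passed as lower in positive thalamus, at 0.11 ± 0.08 FPKM, against 1.61 ± 1.01 FPKM in negative thalamus (-1.13, SE 0.37, adjusted p 0.036). The endothelial marker sums given above moved with Eng, and their part in its level was not tested. The spinal cord call of Bmpr2 (-0.51, SE 0.17, adjusted p 0.048) was lost in 13 of 19 alternatives, with adjusted p from 0.030 to 0.17.

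**Figure D5:**
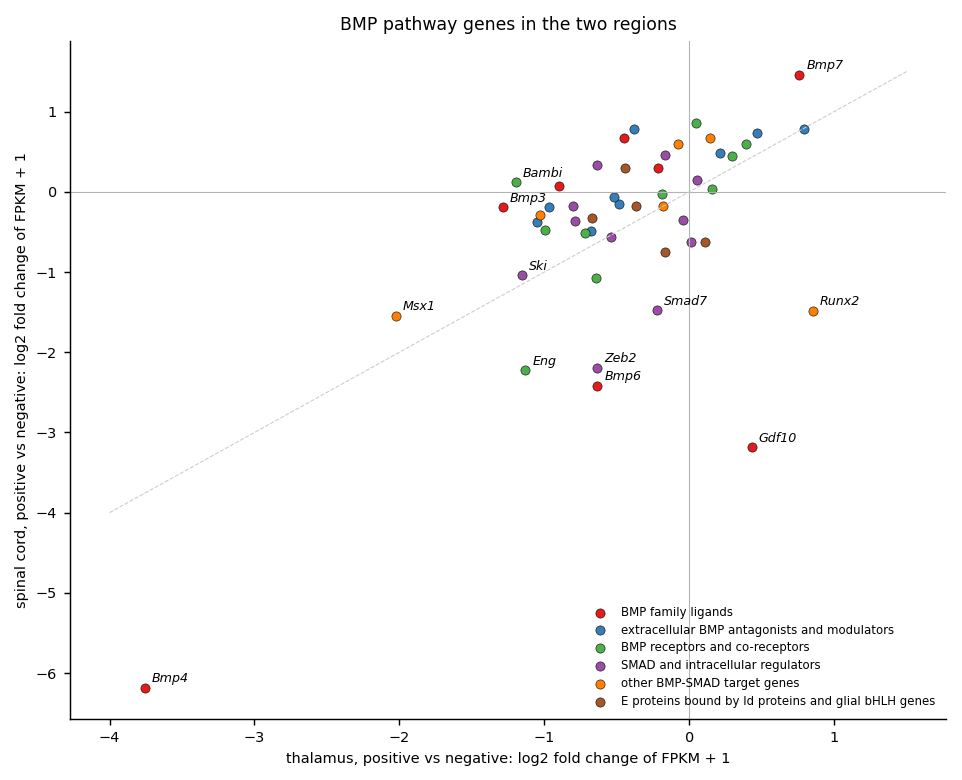
Log2 fold changes of FPKM + 1, positive against negative, in the thalamus (horizontal axis) and spinal cord (vertical axis) for the tested genes of the 6 lists, coloured by list; the dashed line marks equal values. Bmp4 lies far out at -3.76 and -6.18. Gdf10, Runx2, Olig2 and Smad4 lie in the quadrant that is negative in the spinal cord and positive in the thalamus. None of these passed in the thalamus.

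Of 11 SMADs and intracellular regulators, all were tested, and in each region 0 were higher and 3 were lower in positive cells, with medians of -0.36 in the spinal cord and -0.54 in the thalamus. Beside the 19.6% of all features that passed in the spinal cord and the 25.2% in the thalamus, 3 of 11 is not a result about this list. Ski, a nuclear repressor of SMADs, was lower in both, at 20.3 ± 2.39 FPKM in positive spinal cord, against 42.8 ± 4.83 FPKM in negative spinal cord (-1.04, SE 0.17, adjusted p 6.1e-04) and at 16.3 ± 0.92 FPKM in positive thalamus, against 38.4 ± 9.78 FPKM in negative thalamus (-1.16, SE 0.17, adjusted p 2.5e-04). Zeb2, a SMAD-interacting repressor needed for myelination, lay at 25.99 ± 1.71 FPKM in positive spinal cord, against 124 ± 24.6 FPKM in negative spinal cord (-2.19, SE 0.28, adjusted p 6.6e-05). Smad7, an inhibitory SMAD, lay at 0.81 ± 0.27 FPKM in positive spinal cord, against 4.75 ± 3.73 FPKM in negative spinal cord (-1.48, SE 0.37, adjusted p 0.011), a call lost without mouse 3 (adjusted p 0.078) and mouse 4 (adjusted p 0.079). In the thalamus the receptor-activated Smad5 lay at 29.5 ± 7.08 FPKM in positive cells, against 52.0 ± 11.9 FPKM in negative cells (-0.80, SE 0.20, adjusted p 0.011), lost without mouse 2 (adjusted p 0.060) or 4 (adjusted p 0.061). Smurf2, a ubiquitin ligase of the pathway, lay at 11.7 ± 0.67 FPKM in positive thalamus, against 20.9 ± 0.69 FPKM in negative thalamus (-0.79, SE 0.22, adjusted p 0.017), lost without mouse 4 (adjusted p 0.10).

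Of 14 other target genes, 11 were tested. In the spinal cord 1 was higher and 3 were lower, with Smad7 among them, and in the thalamus 0 were higher and 2 were lower, with Bambi among them, and the medians were -0.15 and -0.22. Over all features 19.6% passed in the spinal cord and 25.2% in the thalamus. Msx1, a homeobox target of BMPs, was lower in both, at 2.44 ± 0.75 FPKM in positive spinal cord, against 9.54 ± 4.31 FPKM in negative spinal cord (-1.54, SE 0.39, adjusted p 0.011) and at 0.24 ± 0.12 FPKM in positive thalamus, against 4.81 ± 3.36 FPKM in negative thalamus (-2.03, SE 0.39, adjusted p 0.0017). Its spinal cord call was lost without mouse 1 (adjusted p 0.060). Runx2, a transcription factor best known from bone, lay at 1.68 ± 0.44 FPKM in positive spinal cord, against 6.76 ± 2.78 FPKM in negative spinal cord (-1.48, SE 0.36, adjusted p 0.0100), lost without mouse 2 (adjusted p 0.067) or mouse 3 (adjusted p 0.057). Hey1, a bHLH target shared with Notch, lay at 108 ± 11.3 FPKM in positive spinal cord, against 69.5 ± 20.4 FPKM in negative spinal cord (0.67, SE 0.21, adjusted p 0.035), and that call was lost in 11 of 19 alternatives, with adjusted p from 0.0078 to 0.15.

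Id proteins act by holding E proteins and other bHLH factors, and 5 such genes were tested. In each region 0 were higher and 1 was lower in positive cells, with medians of -0.32 in the spinal cord and -0.37 in the thalamus. Beside the 19.6% of all features that passed in the spinal cord and the 25.2% in the thalamus, this count is not a result about these genes. Tcf12, an E protein, lay at 82.2 ± 10.8 FPKM in positive spinal cord, against 140 ± 25.1 FPKM in negative spinal cord (-0.75, SE 0.15, adjusted p 0.0021). Olig1, an oligodendrocyte-lineage bHLH factor, lay at 103 ± 20.98 FPKM in positive thalamus, against 168 ± 51.9 FPKM in negative thalamus (-0.67, SE 0.20, adjusted p 0.025), a call lost in 7 of 19 alternatives, with adjusted p from 0.0064 to 0.19. The marker sums of oligodendrocyte-lineage cells were lower in positive cells of both regions, and their part in the levels of Zeb2, Tcf12 and Olig1 was not tested.

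Between regions, 9 of the 49 genes passed in positive cells, 18.4% beside 6.1% of all features, and 10 in negative cells, 20.4% beside 9.81%. These counts hold the member Gdf10 in positive cells and the members Bmp4 and Bmp6 in negative cells. The shares are again a description and not a test. In positive cells 2 antagonists and modulators, 3 other targets and 1 bHLH gene were higher in the spinal cord, and 1 ligand (Gdf10), 1 receptor or co-receptor and 1 other target were lower. Apart from that of Gdf10, the calls with alternatives given here were fragile. They were lost in 14 of 19 alternatives for Crim1 and in 15 for Twsg1, both modulators that bind BMPs, in 13 for Neo1, and in 11 each for Olig1 and Runx2. Msx2, the third of the higher targets, averaged 1.43 ± 0.53 FPKM in positive spinal cord. It was at 0 FPKM in all positive thalamus libraries (1.26, SE 0.27, adjusted p 0.0099). Msx2 was also higher in negative spinal cord, at 1.92 ± 1.26 FPKM, against 0.15 ± 0.17 FPKM in negative thalamus. That fold change was 1.25 (SE 0.27, adjusted p 0.0071), and the alternatives of Msx2 are not given. Msx1, at 2.44 ± 0.75 FPKM in positive spinal cord, against 0.24 ± 0.12 FPKM in positive thalamus, had a fold change of 1.45 (SE 0.39, adjusted p 0.038), and its call was lost in 13 of 19 alternatives, with adjusted p from 7.7e-04 to 0.19. Hey1, at 108 ± 11.3 FPKM in positive spinal cord, against 60.9 ± 8.37 FPKM in positive thalamus, had a fold change of 0.82 (SE 0.21, adjusted p 0.029), and its call was lost in 11 of 19 alternatives, with adjusted p from 0.0031 to 0.19. In negative cells 5 of the 49 were higher in the spinal cord and 5 were lower. Among the lower ones Hes1, a bHLH repressor and target shared with Notch, lay at 4.47 ± 1.64 FPKM in negative spinal cord, against 12.9 ± 2.09 FPKM in negative thalamus (-1.38, SE 0.23, adjusted p 0.0012), and passed in all 19 alternatives. Bmp3 was also lower there, at 0.36 ± 0.29 FPKM in negative spinal cord, against 2.58 ± 1.63 FPKM in negative thalamus (-1.32, SE 0.26, adjusted p 0.0046), with its call lost when only the 2 groups were fitted (adjusted p 0.10). The calls of Chrdl1 and Bmper, a BMP-binding protein, both lower there, were lost in 2 and 5 of 18 alternatives, and those of Eng and Zeb2, both higher there, in 12 of 18 and 8 of 19.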

How the data were processed

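RNA was sequenced from FACS-sorted astrocytes, and per the labels' protocols it was isolated with a Qiagen RNeasy plus micro kit and made into libraries with NuGEN RNA-Seq V2. Aligners named by the submitters' processing notes are Bowtie2 2.2.3 and TopHat2 2.0.11, beside Cufflinks, Cuffnorm, HTSeq 0.6.1p1, DESeq2 and FastQC, with no role or order, and the build is GRCm38. The authors deposited FPKM values for 39171 features in the 16 libraries. A second table, which the authors deposited for 444 genes, holds group means in FPKM, a base mean (a normalised signal), a log2 fold change with its SE, a test score and p-values, and 2 of the 9 genes are in it. Depth is unknown, and intervals of counting error are thus left out.

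Features reaching 1 FPKM in 4 or more libraries (16340) were fitted with limma 3.58.1 (R 4.3.3, trended prior) on log2(FPKM + 1), with 1 coefficient per group over all 16 libraries, and p-values were adjusted by Benjamini-Hochberg over these features. All 9 genes passed this filter. The fit was tested on simulated data. The 5 comparisons were positive against negative cells in each region, the difference of these, and spinal cord against thalamus among positive and among negative cells. Alternatives were a pseudocount of 0.1, no filter, a filter at 5 FPKM, median-of-ratios rescaling, a constant prior, only the groups compared, the mouse as a block, each mouse or library left out, and a two-sided exact permutation test of mean FPKM.

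The mouse number pairs libraries because those of 1 number came from 1 animal, per the labels. Deviations from group means had a mean correlation of 0.036 over the 24 same-mouse pairs and -0.012 over the 72 other pairs between groups. The 9 genes and the gene lists were chosen with earlier results of these data known. From each pathway list, up to 3 called genes in each direction of a positive against negative comparison were named, if the higher group averaged 2 FPKM or more. Their alternatives were added after seeing the data. Bambi and Msx2 were named below that level, without alternatives. 1 gene of the list of bHLH factors is not reported here and is left out of its counts. For each of the 8 genes called at least once, the 3 most similar genes were named. Promoters come from RefSeq (GRCm38.p6), and overlaps from GENCODE vM21 (GRCm38).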

Additional observations from a re-analysis of the deposited data

Results flagged for a closer look

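Bmp7 in positive spinal cord had 1 library apart from the others. Mouse 2 was at 24.1 FPKM, while the other 3 mice lay between 19.3 and 19.9 FPKM. This was 1 of the 36 groups of 4 screened, and chance alone flags about 1 in 20 groups. Bmp7 was higher in the positive gate of the spinal cord with and without that library.

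The fold change between the gates differed between spinal cord and thalamus for 3 genes, by a test of the difference itself. Bmp4 differed by -2.43 (SE 0.37, adjusted p 0.0028), with lower values in positive cells of both regions and a larger gap in the spinal cord. Bmp6 differed by -1.78 (SE 0.33, adjusted p 0.0088), and its call in the thalamus alone missed the threshold. Gdf10 differed by -3.62 (SE 0.49, adjusted p 0.0011), with lower values in positive spinal cord in 4 of 4 mice and slightly higher ones in positive thalamus in 4 of 4 mice.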

How the results depend on the processing

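Of 944 recomputed fold changes of the 9 genes, 863 kept their direction and side of the threshold, 36 lost and 8 gained a call, and 37 turned sign. Bmp4, Bmp6, Bmp7, Gdf10 and Id4 in the spinal cord, Bmp4 and Id4 in the thalamus, and Gdf10 in the difference and between the positive groups passed in each alternative run. Leaving out a mouse or library, the number of genes called was 2 to 4 in the thalamus, 5 to 6 in the spinal cord, 1 to 3 for the difference (1 without mouse 3), 1 to 2 between regions in positive cells and 2 to 4 in negative cells. When only the groups compared were fitted, 2 genes were called between regions in negative cells; the cause was not tested. The sign turns were all of uncalled values when samples were left out. The ranges were -0.12 to 0.33 in the thalamus and -0.035 to 0.31 in the spinal cord for Id3; -0.23 to 0.15 for Id2, -0.18 to 0.28 for Id3 and -0.57 to 0.11 for Id4 in the difference; -0.030 to 0.25 for Bmp4 and -0.21 to 0.30 for Id2 between positive groups; and -0.18 to 0.52 for Gdf10 and -0.24 to 0.34 for Id2 between negative groups. With the mouse as a replicate block, Bmp6 in the thalamus gained its call (-0.64, adjusted p 0.040) and Nog in the spinal cord lost it (0.74, adjusted p 0.069), and the block changed no other call of the 9 genes. Of 695 recomputed fold changes of the other pathway genes named by the rule above, 535 kept and 160 lost their call. Over all features, the count called was 4119 in the thalamus (2249 to 4855 with samples left out), 3196 in the spinal cord (1861 to 3006) and 418 for the difference (129 to 659, and 271 as the lowest of the other settings). Between regions it was 996 in positive cells (368 to 838, and 4227 when only the groups compared were fitted) and 1603 in negative cells (976 to 1808, and 353 when only the groups compared were fitted). With the filter at 5 FPKM, Bmp6 and Nog were not tested and have no value. Rescaling factors ran from 0.986 to 1.07, although the summed FPKM of the libraries ran from 984986 to 2344483 and was larger in the negative gate of each region. Depth is unknown, so differences at levels below about 1 FPKM, as for Nog, Bmp6 in the thalamus and Bmp4 in positive cells, carry an unknown counting error.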
